A study of Homo sapiens with 9 samples.

Results

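The 53 genes described here are interferon-stimulated genes and members of the interferon regulatory factor (IRF) family, taken by symbol from count tables of 59648 genes. RNA was sequenced from Kasumi-1, an established human acute myeloid leukaemia line with the t(8;21) translocation, which makes the AML1-ETO fusion protein (AE, also called RUNX1-RUNX1T1). All 53 symbols were found. Of these, 38 had enough counts to be tested and 15 did not, beside 14741 genes tested in all. Each of the 9 libraries came from cells exposed to an shRNA lentivirus for 48 h and then to puromycin (1 µg/mL) for a further 48 h, with RNA taken on day 4. The 3 control libraries carried a control shRNA, the 3 AE libraries an AE shRNA treatment numbered 1 to 3, and the 3 LYL1 libraries a LYL1 shRNA treatment numbered 538, 540 and 542. Whether the AE numbers mark different shRNAs is not said in the labels. The sample titles name the LYL1 libraries by number alone, so their spread may include differences between shRNAs. LYL1 is a basic helix-loop-helix transcription factor, and the study's title places it, with the arginine methyltransferase CARM1, in the protein complex that AML1-ETO forms. The lentivirus and the puromycin selection were common to all 3 groups, so no library shows cells without them.

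Type I interferons bind the receptor IFNAR, whose kinases JAK1 and TYK2 phosphorylate transcription factors such as STAT2. A complex that holds STAT2 and IRF9 binds the interferon-stimulated response element (ISRE), and the GAS element serves the response to interferon gamma. The products of the genes so induced detect, degrade or block viral nucleic acids and proteins, while in myeloid cells IRF8 is also a differentiation factor of monocytes and dendritic cells.

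The promoters of 6 members are printed because they show both kinds of start site among the genes whose levels the results turn on. IFITM1, IFITM3 and EIF2AK2 carry ISRE letters and moved in different directions with AE knockdown. IFI44L carries them and had no counts in any library, while IFI16 and IRF8 carry none. Each window runs from 250 bases before to 50 bases after a RefSeq transcription start, 5′ to 3′ on the gene's strand, in GRCh38.p14. IFITM1 is at chr11:313790-314089 (+), IFITM3 at chr11:320811-321110 (-), EIF2AK2 at chr2:37156931-37157230 (-), IFI44L at chr1:78620198-78620497 (+), IFI16 at chr1:159008741-159009040 (+) and IRF8 at chr16:85902580-85902879 (+). Capitals mark matches to the ISRE letters (GAAA, any 2 bases, GAAA) and to the RUNX letters TGTGGT, which appear as ACCACA where the match is on the reverse strand.
IFITM1: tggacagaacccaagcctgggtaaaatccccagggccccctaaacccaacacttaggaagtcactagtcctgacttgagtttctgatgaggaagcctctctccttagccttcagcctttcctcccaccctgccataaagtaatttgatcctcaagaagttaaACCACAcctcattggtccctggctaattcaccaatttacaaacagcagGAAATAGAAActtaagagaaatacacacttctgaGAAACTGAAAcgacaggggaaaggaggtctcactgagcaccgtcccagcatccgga
IFITM3: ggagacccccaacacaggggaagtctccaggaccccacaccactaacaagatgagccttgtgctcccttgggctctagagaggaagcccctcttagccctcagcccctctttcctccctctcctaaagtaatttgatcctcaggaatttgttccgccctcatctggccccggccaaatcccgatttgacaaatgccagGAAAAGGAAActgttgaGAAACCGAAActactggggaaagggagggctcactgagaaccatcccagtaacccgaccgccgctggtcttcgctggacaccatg
EIF2AK2: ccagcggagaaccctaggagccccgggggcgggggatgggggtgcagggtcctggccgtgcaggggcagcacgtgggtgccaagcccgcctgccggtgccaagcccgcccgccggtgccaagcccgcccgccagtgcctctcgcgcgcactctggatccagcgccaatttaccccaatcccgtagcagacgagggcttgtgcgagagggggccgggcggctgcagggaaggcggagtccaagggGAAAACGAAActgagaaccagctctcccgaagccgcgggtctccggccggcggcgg
IFI44L: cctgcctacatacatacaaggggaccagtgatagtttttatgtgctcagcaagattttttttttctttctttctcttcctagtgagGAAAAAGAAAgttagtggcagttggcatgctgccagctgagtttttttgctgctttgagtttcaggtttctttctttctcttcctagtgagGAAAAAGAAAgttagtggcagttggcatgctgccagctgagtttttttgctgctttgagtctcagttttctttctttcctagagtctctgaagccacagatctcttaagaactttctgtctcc
IFI16: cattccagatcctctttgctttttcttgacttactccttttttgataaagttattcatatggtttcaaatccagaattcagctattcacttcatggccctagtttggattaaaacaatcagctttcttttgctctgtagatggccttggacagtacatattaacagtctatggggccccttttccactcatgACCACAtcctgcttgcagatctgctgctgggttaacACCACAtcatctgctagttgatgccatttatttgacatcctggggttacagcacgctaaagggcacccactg
IRF8: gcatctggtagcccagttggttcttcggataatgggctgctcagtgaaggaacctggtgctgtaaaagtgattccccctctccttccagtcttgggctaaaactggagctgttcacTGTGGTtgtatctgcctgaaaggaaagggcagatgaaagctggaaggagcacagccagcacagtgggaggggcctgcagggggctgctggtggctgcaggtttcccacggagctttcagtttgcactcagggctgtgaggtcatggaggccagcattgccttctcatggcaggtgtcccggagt

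In IFITM1 the first bases of the ISRE matches lay at -40 and -6 from the start, and in IFITM3 at -52 and -35. EIF2AK2 had 1 match at -6, and IFI44L had matches at -164 and -73. In the printed windows, RUNX letters lay at -88 in IFITM1, at -58 and -22 in IFI16 and at -134 in IRF8. IFI16 and IRF8 each had a further RefSeq window, not printed, with RUNX letters at -105 in IFI16 and none in IRF8. RefSeq gave windows for 41 of the 53 members, with several windows for 12 of them, 58 windows in all. Searched on both strands, the ISRE letters were found in 30 of the 58 member windows (51.7%), against 3.57% of all 35116 windows in the table. The GAS letters TTCNNNGAA were found in 11 member windows (19% against 7.66%) and the RUNX letters in 9 (15.5% against 13.1%). In IFITM1 a GAS match at -12 overlapped the ISRE match at -6. Per gene, 18 of the 30 tested members with a window and 8 of the 11 untested ones had an ISRE match. Among the members called with AE knockdown, 8 had a window and 4 an ISRE match, namely EIF2AK2, IFITM1, IFITM3 and SAMD9. These matches describe letters in a window and show neither binding nor its absence.

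Library totals ran from 20103275 to 28039518 counts, and levels below are CPM, the counts as a share of the library total scaled with TMM factors. Counts varied by 7.57% between control libraries, by 31.5% between AE libraries and by 20.9% between LYL1 libraries (biological coefficient of variation). RUNX1T1, the ETO side of the fusion, stood at 215, 223 and 211 CPM in the controls, against 114, 136 and 87.6 CPM in the AE libraries (log2 fold change -0.94, SE 0.18, edgeR adjusted p = 0.00778). RUNX1, its other side, stood at 390, 382 and 367 CPM against 241, 232 and 199 CPM (log2 fold change -0.76, edgeR adjusted p = 0.0119), and reads of the fusion and of the normal genes are counted together in both. LYL1 stood at 172, 172 and 143 CPM in the controls, against 80.3, 98.3 and 43.9 CPM in the LYL1 libraries, a difference that was not called (log2 fold change -1.13, edgeR adjusted p = 0.526). All 5 Kasumi-1 markers (RUNX1T1, KIT, CD34, CD33, MPO) had counts in every library, though their levels varied. CD33 was called higher with AE knockdown (mean 31.2 CPM in control and 125 CPM in AE). Its LYL1 libraries, at 75.7, 76.9 and 82.3 CPM, were also above every control but were not called (edgeR adjusted p = 0.142). CD34 ran from 1.14 CPM in AE library 1 to 53.2 CPM in LYL1 library 538. Its controls lay at 10.5 to 12.5 CPM, and it was not called. KIT and MPO were not called against control. A list of 14 monocyte and macrophage genes summed to 33.2 to 35.4 CPM in the controls, 85.9, 114 and 595 CPM in AE libraries 1, 2 and 3, and 59.6 to 68.7 CPM in the LYL1 libraries. Of its 9 tested genes 7 were called higher with AE knockdown (77.8%, beside 11.4% of all genes called higher). Among them were TYROBP (10.4, 3.49 and 72.9 CPM in AE libraries 1, 2 and 3) and LYZ (23.5, 9.72 and 129 CPM). S100A8 (1.29, 2.92 and 85 CPM) and S100A9 (8.68, 71.3 and 198 CPM) were called too. S100A8 had 0, 1 and 0 counts in the controls. It had enough counts to be tested through its AE libraries alone, so its difference is in part a condition of being tested. CD86 (mean 0.808 CPM in control and 0.391 CPM in AE) and FCGR1A (8.11 and 8.6 CPM) were not called. For S100A9, AE library 1 was below all controls (9.14, 10.2 and 9.36 CPM). Of the 4 tested late granulocyte genes, CEBPE (mean 64.8 CPM in control and 267 CPM in AE) and CXCR2 (6.59 and 13.5 CPM) were called higher. FPR2 of that list (15.8 and 4 CPM) was called lower. Among the genes of other cell types, NKG7 (0.261 and 9.14 CPM) was called higher and CD3D (4.24 and 0.456 CPM) lower. The monocyte markers CD14, CD68, CD163 and VCAN stayed between 0 and 0.151 CPM in every library. Mitochondrial rRNA made up 0.483% to 0.549% of the control counts 0.603%, 0.521% and 1.21% of the AE counts, and 0.507%, 0.609% and 0.791% of the LYL1 counts. AE library 3 was thus highest in both measures, and LYL1 library 542 had the next highest rRNA share. The part of these genes or of the rRNA share in the results below was not tested, and in bulk RNA fewer cells of a type and less RNA per cell cannot be told apart.

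The control levels of the members spanned a wide range, from abundant transcripts to genes with no counts. Per kilobase of exon, the mean control level was highest for IFI16 at 106 CPM, followed by the RNA-editing enzyme ADAR at 50.9, IFITM3 at 41.4 and the lectin LGALS9 at 39.8. IFI16 and ADAR were separated in the control libraries (103 to 108 against 47.6 to 52.7 CPM per kb), whereas IFITM3 (35.8 to 45) and LGALS9 (32.4 to 46.9) overlapped. IFITM2 followed at 26.2 and IRF5 at 23.7 CPM per kb, and their ranges overlapped too (21.4 to 30.8 and 20.4 to 25.9). At the other end of the tested members stood the deconjugase USP18 at 0.22 and IRF8 at 0.0346 CPM per kb. All 53 members together summed to 1518, 1510 and 1417 CPM in the controls, 1400, 1171 and 1211 CPM in the AE libraries and 1418, 1449 and 1403 CPM in the LYL1 libraries.

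**Figure D1:**
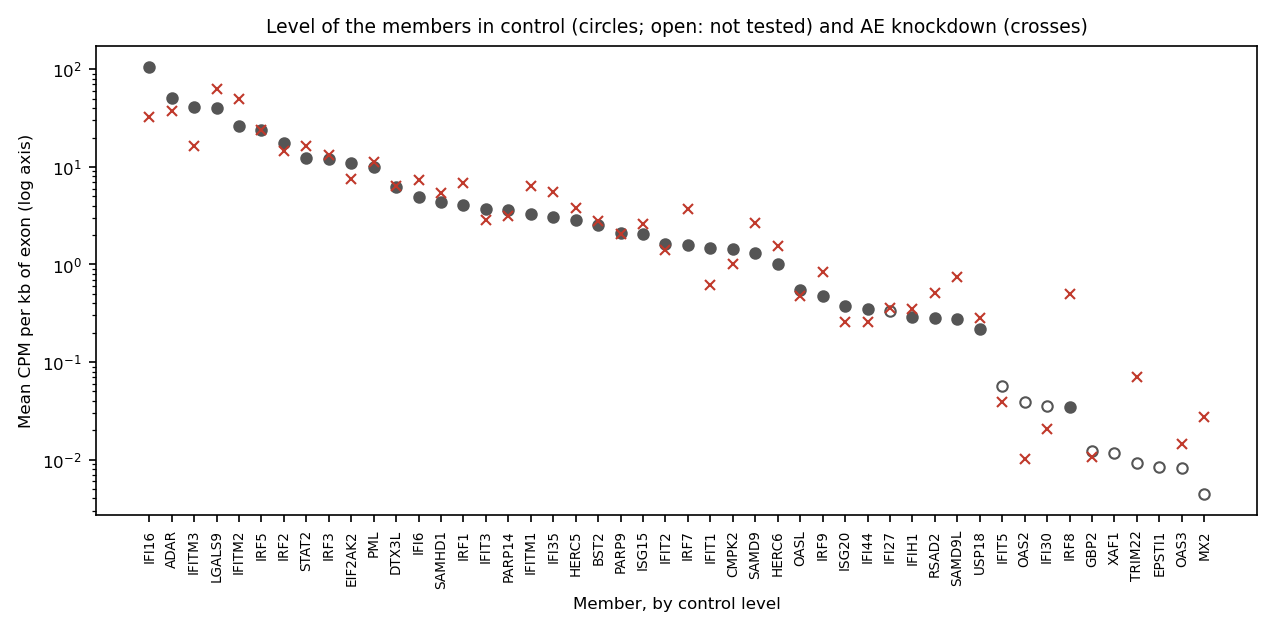
Mean level of the members in CPM per kilobase of exon (log axis), ordered by the control level; circles are controls (open where the member was not tested) and crosses are AE knockdown. Levels run from 106 for IFI16 downwards, and GBP1, GBP4, IFI44L, MX1 and OAS1, with 0 counts in the controls, and AE values of 0 are not drawn.

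The 15 untested members included all 5 interferon-induced GTPases (MX1, MX2, GBP1, GBP2 and GBP4), which block viral entry or replication. They also included 3 of the 4 oligoadenylate synthetase genes (OAS1, OAS2, OAS3), whose products activate RNase L, as well as TRIM22, IFIT5, IFI27, IFI30, IFI44L, XAF1 and EPSTI1. OAS1, GBP1 and IFI44L had 0 counts in all 9 libraries, and 3 counts, the limit that a count of 0 allows, correspond to 0.106 to 0.15 CPM. A further 7 never exceeded 5 counts, and the other 5 peaked at up to 20 counts. MX1, a textbook marker of a type I interferon response, had 0 counts in the 3 controls, 2, 0 and 0 in the AE libraries and 2, 2 and 3 in the LYL1 libraries. TRIM22, a nuclear antiviral ubiquitin ligase, had 1, 0 and 1 counts in the controls, 3, 1 and 10 in the AE libraries and 0 in each LYL1 library. IFI27 had 10, 1 and 9 counts in the controls, 5, 20 and 0 in the AE libraries and 4, 2 and 7 in the LYL1 libraries, a wide spread within every group.

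AE knockdown was compared with control to ask how the members' RNA levels changed when the fusion was lowered. It moved these genes in both directions. IRF8, IRF7, IFITM1, IFITM2, SAMD9, SAMD9L and IFI35 rose, and IFI16, IFITM3 and EIF2AK2 fell. By edgeR's quasi-likelihood F test, with p adjusted over all 14741 genes, 7 of the 38 tested members were called higher and 3 lower at an adjusted p below 0.05. That is 26.3% of the tested members, beside 21.8% of all genes tested (11.4% higher and 10.4% lower), so the share called lay near the background. The median log2 fold change was 0.23 over the tested members, from -1.69 to 3.71, against 0.05 over all genes. Of the tested members 23 lay above 0 (60.5%, against 53.3% of all genes). An unadjusted edgeR p below 0.05 was found for 16 of the 38 tested members and for 5488 of the 14741 genes (37.2%). For 11 members all AE libraries were above all controls and for 6 all were below (44.7% in all, against 45.2% of all genes, 23.1% above and 22.2% below). IRF8 had passed the low-count filter through its AE libraries alone, so its difference is in part a condition of being tested, and the calls without it are 6 higher and 3 lower.

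IFI16 is a nuclear and cytosolic DNA sensor of the HIN-200 family and the member with the highest control level per kilobase. Its level was 303, 317 and 313 CPM in the controls, 134, 93 and 60.9 CPM in the AE libraries and 334, 250 and 323 CPM in the LYL1 libraries. All 3 AE libraries were below every other library, at 43.1%, 29.9% and 19.6% of the control mean. IFI16 fell by 1.69 on the log2 scale (SE 0.24, edgeR adjusted p = 0.00283), a 3.24-fold lower level. The other tested nuclear factors were the nuclear body protein PML, the dNTP hydrolase SAMHD1 and the exonuclease ISG20, and their log2 fold changes lay between -0.44 and 0.29 with no call. All 5 listed genes of this group together summed to 419 to 433 CPM in the controls and 193 to 270 CPM in the AE libraries, with IFI16 the largest contributor in the controls.

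The IFITM proteins sit in membranes and hinder fusion of enveloped viruses with the cell, and their genes lie side by side. IFITM3 and its neighbours went in opposite directions. IFITM3 stood at 52.8, 54.6 and 43.4 CPM in the controls, 21.3, 20.1 and 17.3 CPM in the AE libraries and 46.4, 52.3 and 58.4 CPM in the LYL1 libraries. Its AE libraries lay close together and below all others (log2 fold change -1.36, SE 0.15, edgeR adjusted p = 0.00111), with the smallest adjusted p of the members. IFITM1 stood at 3.44, 3.43 and 3.31 CPM in the controls, 4.5, 7.22 and 8.07 CPM in the AE libraries and 2.99, 2.24 and 2.34 CPM in the LYL1 libraries. Here the AE libraries were above and the LYL1 libraries below every control (AE against control, log2 fold change 0.95, SE 0.25, edgeR adjusted p = 0.022). IFITM2 stood at 32.6, 27.8 and 22.6 CPM in the controls, 48.2, 41.8 and 67.6 CPM in the AE libraries and 35.2, 32.7 and 15 CPM in the LYL1 libraries. Its AE libraries were above all others, the highest being AE library 3 (log2 fold change 0.92, SE 0.3, edgeR adjusted p = 0.0469).

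These 3 transcripts resemble one another. In the longest coding transcripts of GENCODE 29, IFITM3 shared 12.9% of its 50-base windows with IFITM1 and 11.6% with IFITM2, and IFITM1 shared 6.2% with IFITM2. How the counting treated reads that fit several places is not given in the sources used here, so the IFITM counts are uncertain to that extent. The pairs tested among the IFIT, IRF, SAMD9 and HERC members shared no such window. BST2, also called tetherin, which holds budding virus at the cell surface, was not called (log2 fold change 0.13).

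Among the transcription factors, IRF8 and IRF7 rose and the other 6 were not called (25% with IRF8 counted, beside the 21.8% of all genes). IRF8 had passed the low-count filter through its AE libraries alone, and without it IRF7 is the only call in this group. IRF8 stood at 0.162, 0.188 and 0.0839 CPM in the controls, 1.5, 0.598 and 4.13 CPM in the AE libraries and 0.192, 0.232 and 0.0997 CPM in the LYL1 libraries. The counts behind these levels were 4, 5 and 2 in the controls, 42, 17 and 86 in the AE libraries and 5, 6 and 2 in the LYL1 libraries. AE libraries 1 and 3 were highest, and AE library 2 was also above every control and LYL1 library. The edgeR log2 fold change was 3.71 (SE 0.78, adjusted p = 0.00981). Summed counts of 145 against 11 gave a ratio of 12.8 (95% interval 6.96 to 26.3, exact and for counting error only). That interval leaves out the spread between the AE libraries and the condition of the filter. Without control library 3 the log2 fold change was 3.46 with an edgeR adjusted p of 0.0506, and without AE library 3 it was 2.79 with an adjusted p of 0.00849. Of the 7 called genes of the monocyte list, CSF1R, TYROBP, FCER1G and LYZ had the same order of AE libraries as IRF8 (3, 1, 2), and S100A8, S100A9 and ITGAM had the order 3, 2, 1. Their part in the IRF8 result was not tested.

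IRF7, which amplifies interferon production after infection, stood at 3.64, 3.31 and 3.27 CPM in the controls, 8.11, 4.82 and 10.8 CPM in the AE libraries and 5.71, 4.52 and 3.19 CPM in the LYL1 libraries. Every AE library was above every control, while LYL1 library 538 was above AE library 2 (AE against control, log2 fold change 1.20, SE 0.31, edgeR adjusted p = 0.0204). IRF9, the DNA-binding subunit of the STAT complex, stood at 1.05, 0.941 and 0.839 CPM in the controls, 1.14, 1.37 and 2.45 CPM in the AE libraries and 0.959, 1.24 and 0.698 CPM in the LYL1 libraries. The AE libraries lay above the controls, yet the test did not call it (log2 fold change 0.77, SE 0.35, edgeR adjusted p = 0.135). IRF1 was measured at 15, 15.6 and 16.1 CPM in the controls, 35.2, 23.1 and 19.7 CPM in the AE libraries and 11.2, 23.2 and 7.63 CPM in the LYL1 libraries, again without overlap between AE and control and without a call (log2 fold change 0.74, edgeR adjusted p = 0.148). STAT2, IRF3, IRF5 and IRF2 had log2 fold changes of 0.43, 0.14, 0.00 and -0.27. IRF3 is the factor that virus sensors activate first, and IRF2 is known mainly as an antagonist of IRF1.

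**Figure D2:**
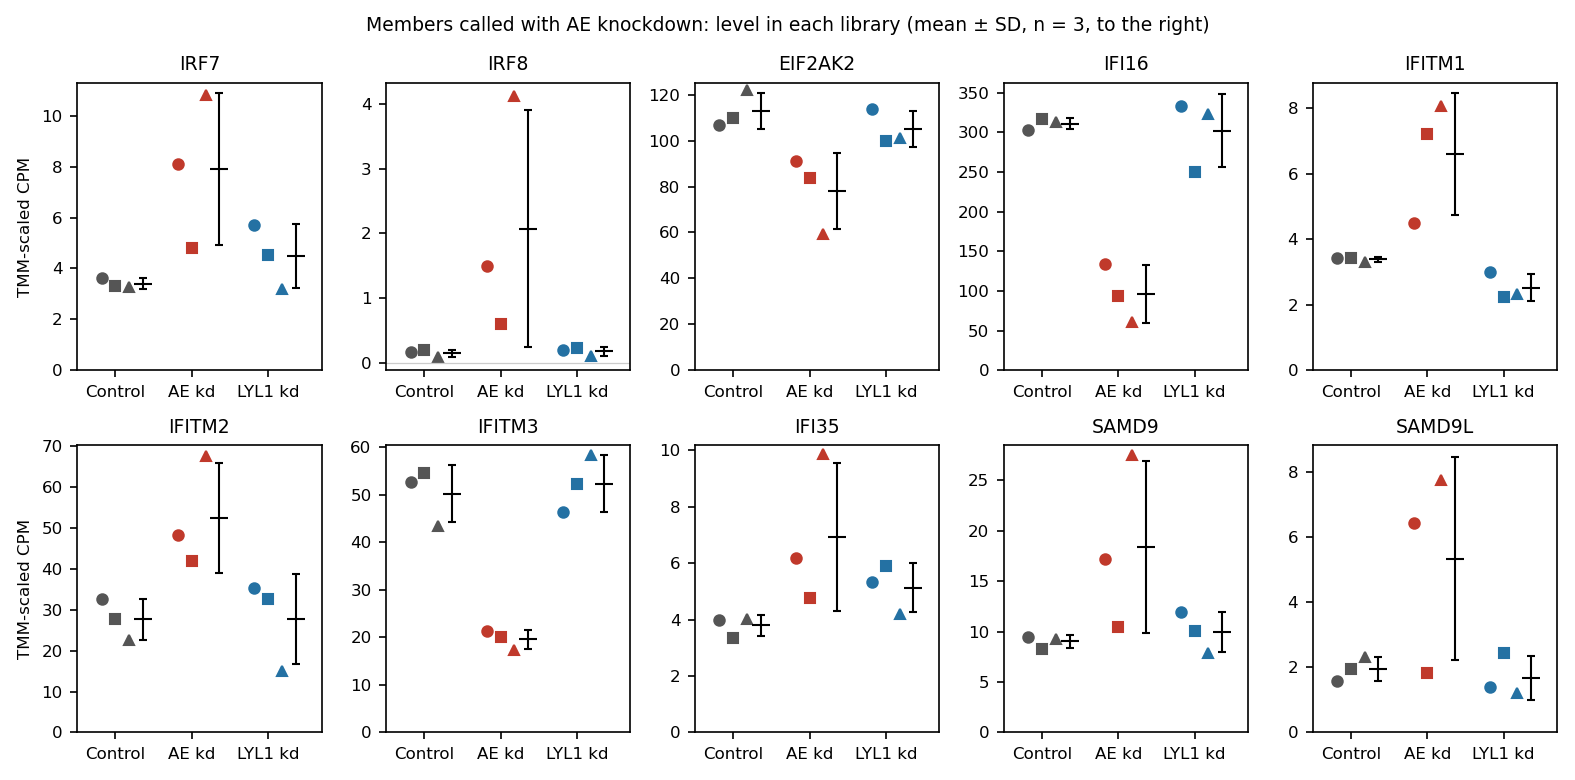
TMM-scaled CPM of the 10 members called with AE knockdown, 1 panel per gene, with controls in grey, AE knockdown in red and LYL1 knockdown in blue; circle, square and triangle are libraries 1, 2 and 3 (538, 540 and 542 for LYL1), and bars to the right are mean ± SD (n = 3). IFI16, IFITM3 and EIF2AK2 are lower in all 3 AE libraries than in any control, and for SAMD9L AE library 2, at 1.83 CPM, lies among the controls.

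The double-stranded RNA sensors and RNA enzymes held 1 called member of 4 tested (25%, beside the 21.8% of all genes). EIF2AK2 encodes PKR, the kinase that halts translation on binding double-stranded RNA. Its level was 107, 110 and 122 CPM in the controls, 91.1, 83.8 and 59.5 CPM in the AE libraries and 114, 99.9 and 101 CPM in the LYL1 libraries. It fell by 0.53 on the log2 scale (SE 0.16, edgeR adjusted p = 0.0395), and all AE libraries were below all others. ADAR, which edits double-stranded RNA, stood at 387, 385 and 350 CPM in the controls and 293, 324 and 215 CPM in the AE libraries, also without overlap, but was not called (log2 fold change -0.43, edgeR adjusted p = 0.0985). The sensor IFIH1, or MDA5, and OASL had log2 fold changes of 0.31 and -0.16.

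None of the 3 tested IFIT genes, whose products bind foreign RNA ends and block its translation, was called. IFIT1 came nearest, at 6.19, 6.97 and 7.3 CPM in the controls, 1.36, 4.68 and 2.4 CPM in the AE libraries and 3.76, 10.1 and 6.33 CPM in the LYL1 libraries. All AE libraries were below all controls but spread widely (log2 fold change -1.27, SE 0.43, edgeR adjusted p = 0.056). It passed the threshold without AE library 2 (log2 fold change -1.89, edgeR adjusted p = 0.011), without LYL1 library 538 (0.0452) and without LYL1 library 540 (0.0482). IFIT2 and IFIT3 had log2 fold changes of -0.24 and -0.37, with overlapping libraries. Neither the 4 genes of ISG15 conjugation nor the PARP9, PARP14 and DTX3L group held a called member. ISG15 is a ubiquitin-like modifier, HERC5 and HERC6 are ligases of the HERC family and USP18 removes ISG15, and their log2 fold changes were 0.37, 0.38, 0.63 and 0.38 (lowest edgeR adjusted p = 0.12). The ADP-ribosyltransferase genes PARP9 and PARP14 and the ligase gene DTX3L lay between -0.22 and 0.03.

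Of the 8 tested genes in the remaining group, 3 rose and none was called lower (37.5%, beside the 21.8% of all genes). SAMD9 and SAMD9L are neighbouring antiviral genes whose products restrain cell growth and translation. SAMD9 stood at 9.51, 8.28 and 9.31 CPM in the controls, 17.2, 10.5 and 27.5 CPM in the AE libraries and 11.9, 10.1 and 7.87 CPM in the LYL1 libraries. The AE libraries were above the controls, with AE library 2 inside the LYL1 range (AE against control, log2 fold change 1.02, SE 0.3, edgeR adjusted p = 0.0348). SAMD9L stood at 1.58, 1.96 and 2.31 CPM in the controls, 6.43, 1.83 and 7.74 CPM in the AE libraries and 1.38, 2.44 and 1.2 CPM in the LYL1 libraries. AE libraries 1 and 3 were high and AE library 2 was among the controls (log2 fold change 1.44, SE 0.47, edgeR adjusted p = 0.049). IFI35, which is induced by interferon and carries NMI-like domains, stood at 4, 3.35 and 4.03 CPM in the controls, 6.18, 4.75 and 9.85 CPM in the AE libraries and 5.33, 5.88 and 4.19 CPM in the LYL1 libraries. All AE libraries and all LYL1 libraries were above all controls (AE against control, log2 fold change 0.86, SE 0.28, edgeR adjusted p = 0.0476).

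RSAD2, or viperin, which makes a chain-terminating nucleotide, stood at 0.89, 1.05 and 1.01 CPM in the controls, 1.86, 1.37 and 2.16 CPM in the AE libraries and 1.04, 2.44 and 1.3 CPM in the LYL1 libraries. All AE libraries were above all controls, and LYL1 library 538 lay within the control range (AE against control, log2 fold change 0.85, SE 0.36, edgeR adjusted p = 0.11). CMPK2, the neighbour of RSAD2 on the chromosome, had a log2 fold change of -0.51 in the same comparison. LGALS9, which encodes galectin-9, had 146, 125 and 101 CPM in the controls and 252, 143 and 188 CPM in the AE libraries, with AE library 2 below the highest control (log2 fold change 0.65, edgeR adjusted p = 0.0585). IFI6 and IFI44 had log2 fold changes of 0.55 and -0.42 and overlapping libraries.

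**Figure D3:**
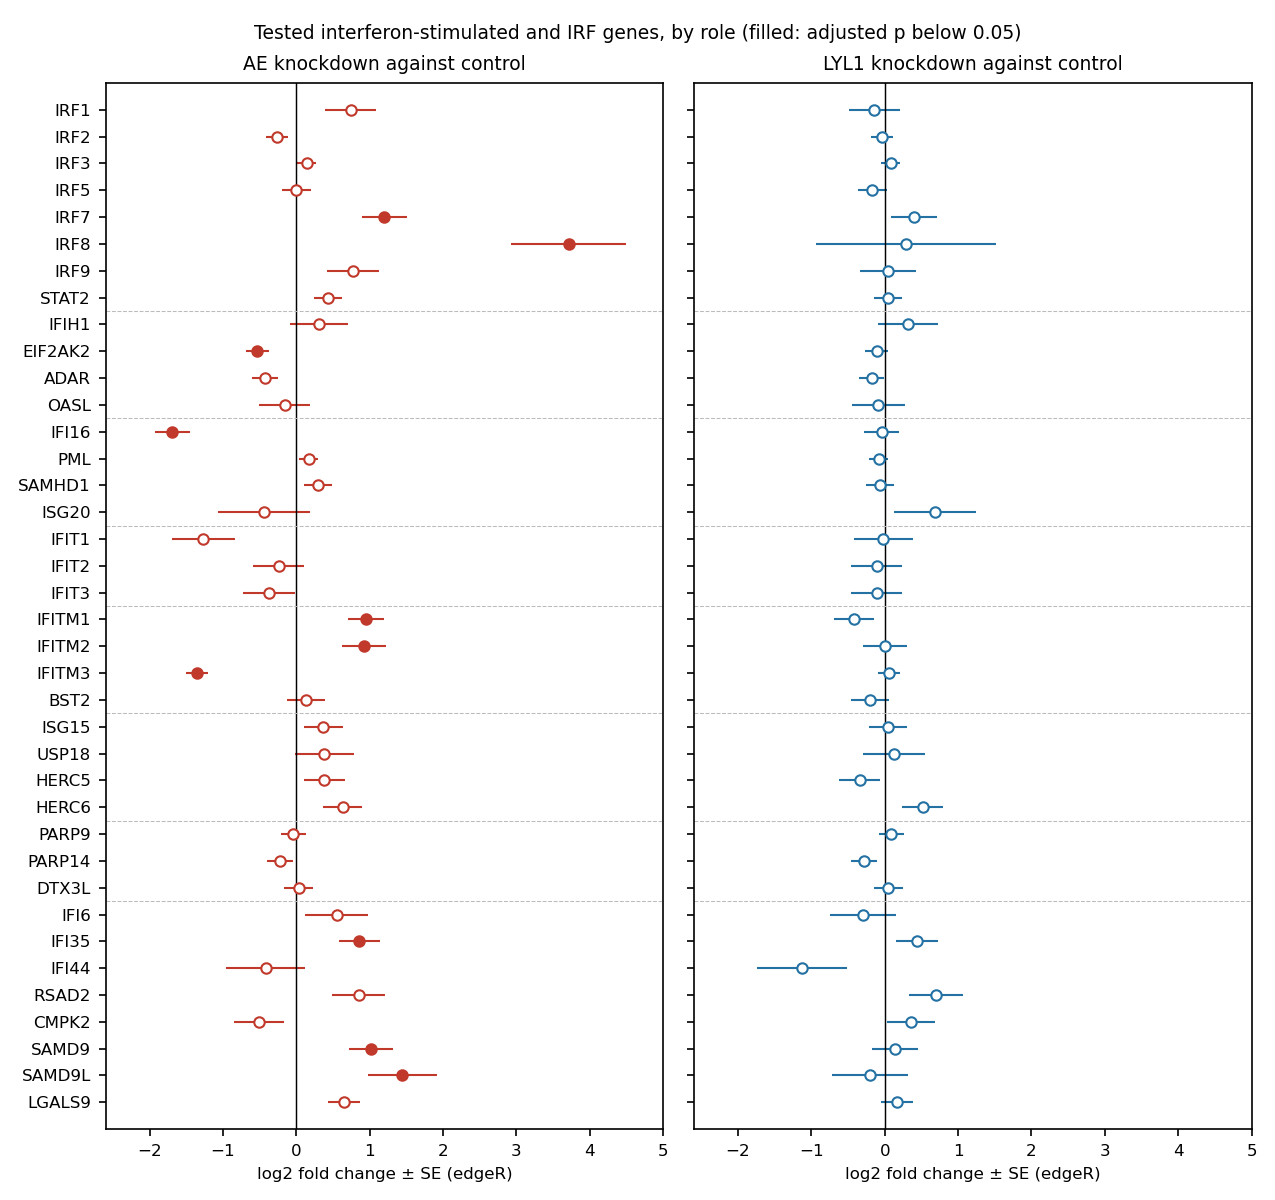
Log2 fold change ± SE (edgeR) of the 38 tested members for AE knockdown against control (left) and LYL1 knockdown against control (right), grouped by role with dashed lines between groups; filled points have an adjusted p below 0.05. The left panel holds 10 filled points, from -1.69 for IFI16 to 3.71 for IRF8, and the right panel holds none; both comparisons use the same control libraries.

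The AE calls rested on the spread between few libraries, and AE library 3 held the highest of the 3 AE values for 21 of the 38 tested members and the lowest for 10. Without that library, whose monocyte sum and mitochondrial rRNA share are given above, 2 members were called higher (IRF7 and IRF8) and 2 lower (IFI16 and IFITM3), while 17.2% of all genes were called in that fit. Without control library 1 or 2 the calls were 1 higher and 2 lower, and without control library 3 they were 0 higher and 2 lower. The share of all genes called fell alongside, from 21.8% to 7.2%, 6.31% and 6.89% without control library 1, 2 or 3. The number called higher was 3 without AE library 1, 4 without LYL1 library 538 and 3 without LYL1 library 540, where 20.3%, 19.4% and 19.1% of all genes were called. Without AE library 2 the calls were 9 higher and 5 lower, and 28.4% of all genes were called. By gene, IRF7 was lost without any 1 of the controls, and IFITM1 without any 1 of them or AE library 3. SAMD9 was lost without a control, AE library 1 or 3, or LYL1 library 540. EIF2AK2 was lost without a control, AE library 3, or LYL1 library 538 or 540, and IFITM2 without any of these or AE library 1. IFI35 and SAMD9L were lost without any 1 library other than AE library 2. IFI16 and IFITM3 were called in all 19 alternative fits of this comparison, with edgeR, DESeq2 or limma adjusted p up to 0.0186 and 0.0139.

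**Figure D4:**
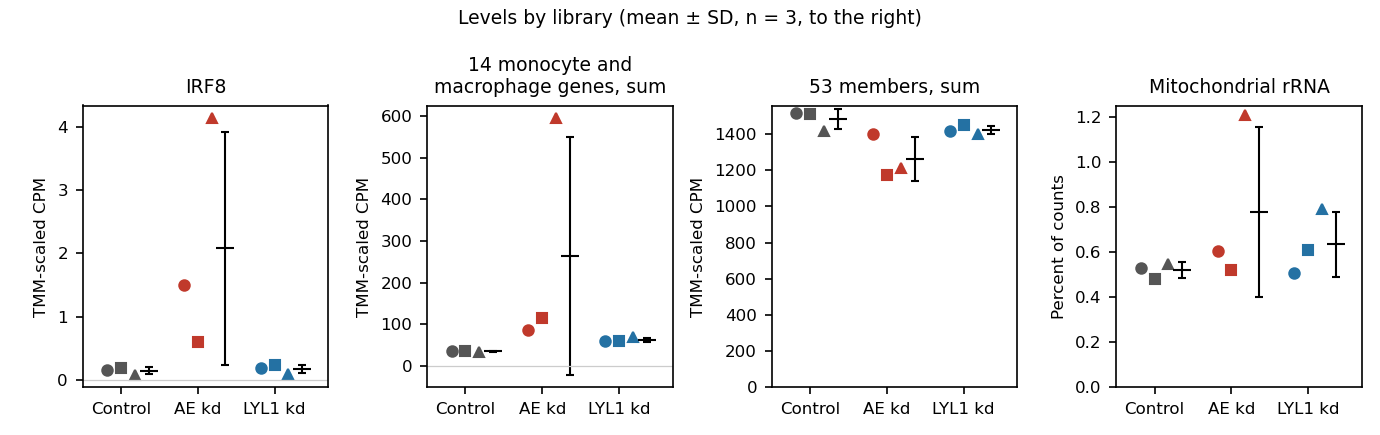
Levels by library for IRF8, for the summed 14 monocyte and macrophage genes and for the summed 53 members (TMM-scaled CPM), and the percent of counts from mitochondrial rRNA; symbols and mean ± SD (n = 3) as in the plot of the called members, with zero marked by a line where an axis extends below it. AE library 3 (red triangle) is highest for IRF8 at 4.13 CPM, for the monocyte list at 595 CPM and for mitochondrial rRNA at 1.21%, while the member sum is 1211 CPM there.

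LYL1 knockdown was compared with control to ask the same of LYL1. No member was called. With edgeR 0 of the 38 tested members passed, against 0.0136% of all genes tested (0.00678% in each direction), and 0 had an unadjusted p below 0.05, against 4.82% of all genes. DESeq2 and limma-voom also called 0. The median log2 fold change of the tested members was -0.01, from -1.13 to 0.7, and the median over all genes was 0.01. Of the tested members 18 lay above 0 (47.4%, against 51% of all genes). LYL1 and control libraries did not overlap for 1 member that was higher (IFI35) and 3 that were lower (IFITM1, PARP14 and IFI44), which is 10.5%, against 16.6% of all genes (8.41% higher and 8.17% lower). A missed threshold does not show equal levels, since the median SE of a log2 fold change was 0.22 and LYL1 itself was not called.

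The most distant member was IFI44, at 0.445, 0.489 and 0.839 CPM in the controls, 0.143, 0.774 and 0.385 CPM in the AE libraries and 0.153, 0.271 and 0.399 CPM in the LYL1 libraries. All LYL1 libraries were below all controls at these low levels (LYL1 against control, log2 fold change -1.13, SE 0.61, edgeR adjusted p = 1). RSAD2, with LYL1 library 540 the highest of all at 2.44 CPM, had a log2 fold change of 0.7. ISG20, an exonuclease, stood at 0.607, 0.904 and 0.881 CPM in the controls, 0.357, 1.13 and 0.192 CPM in the AE libraries and 1.8, 0.464 and 1.64 CPM in the LYL1 libraries. LYL1 libraries 538 and 542 were high and library 540 was below the controls (log2 fold change 0.69, SE 0.56). For the members called with AE knockdown, the LYL1 log2 fold changes were -0.04 for IFI16, 0.06 for IFITM3, -0.11 for EIF2AK2, 0.29 (SE 1.22) for IRF8 and 0.40 for IRF7. They were -0.42 for IFITM1, 0.00 for IFITM2, 0.44 for IFI35, 0.14 for SAMD9 and -0.20 for SAMD9L.

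The difference between the knockdowns was tested directly as AE against LYL1 libraries. IRF8, IFITM1, IFITM2 and SAMD9L were higher and IFI16 and IFITM3 lower in the AE libraries. IRF8 had passed the low-count filter through its AE libraries alone here too, so its difference is in part a condition of being tested, and the calls without it are 3 higher and 2 lower. The 4 higher and 2 lower calls with it are 15.8% of the tested members, beside 20.4% of all genes tested (10.7% higher and 9.7% lower). The median log2 difference was 0.21 over the tested members and 0.03 over all genes, and 24 members lay above 0 (63.2%, against 52% of all genes). An unadjusted edgeR p below 0.05 was found for 13 of the 38 tested members and for 5350 of the 14741 genes (36.3%). The log2 difference was 3.42 for IRF8 (SE 0.76, edgeR adjusted p = 0.0121), 1.37 for IFITM1 (SE 0.26, 0.00691), 0.92 for IFITM2 (SE 0.3, 0.0491) and 1.64 for SAMD9L (SE 0.48, 0.0345). It was -1.65 for IFI16 (SE 0.24, edgeR adjusted p = 0.00331) and -1.42 for IFITM3 (SE 0.15, 0.00119). For IRF7 it was 0.80 with an adjusted p of 0.0804 (edgeR), so its rise was not shown to differ between the knockdowns, and likewise for SAMD9 (0.0613), EIF2AK2 (0.0854) and IFI35 (0.294). AE and LYL1 libraries did not overlap for 5 members that were higher (IRF8, PML, IFITM1, IFITM2, HERC5) and 3 that were lower (IFI16, IFITM3, EIF2AK2), together 21.1% against 35.5% of all genes (18.2% higher and 17.2% lower). The calls of IFITM2 and SAMD9L did not hold to single libraries. IFITM2 was no longer called when any 1 library other than AE library 2 was left out, nor SAMD9L when any 1 other than AE library 2 or LYL1 library 540 was (edgeR adjusted p = 0.144 and 0.102 without AE library 3). IFITM1, IFI16 and IFITM3 were called in all 18 alternative fits, and IRF8 in the 17 that tested it.

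A list of 47 other genes of the pathway was read beside the members, and 29 of them could be tested. Of the 10 interferon genes listed, 8 had 0 counts in all libraries, and IFNB1 and IFNL1 had 1 count each in 1 library (AE library 1 and LYL1 library 538). The receptor and kinase genes IFNAR1, JAK1 and TYK2 were expressed and not called with either knockdown. Compared with control, AE knockdown called 3 pathway genes higher and 3 lower, 20.7% of those tested beside the 21.8% of all genes, and LYL1 knockdown called 0 by edgeR, with 0 at an unadjusted p below 0.05.

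The 3 that rose were the interferon gamma receptor gene IFNGR1, the phosphatase gene PTPN6 (SHP-1, a brake on JAK signalling) and UNC93B1, which carries nucleic-acid-sensing Toll-like receptors to endosomes. PTPN6 stood at 92.4, 94.4 and 93.4 CPM in the controls, 283, 213 and 297 CPM in the AE libraries and 140, 88.6 and 66.5 CPM in the LYL1 libraries (AE against control, log2 fold change 1.5, edgeR adjusted p = 0.00401). UNC93B1 stood at 14.5, 14.9 and 15.3 CPM in the controls and 27.9, 30.1 and 50.1 CPM in the AE libraries (log2 fold change 1.27, edgeR adjusted p = 0.00741). IFNGR1 stood at 34.5, 35.6 and 34.2 CPM in the controls and 59.1, 51 and 148 CPM in the AE libraries (log2 fold change 1.3, edgeR adjusted p = 0.0231). All 3 had every AE library above every control, and AE library 3 was far above the other two for IFNGR1, whose log2 fold change without it was 0.65. The genes that fell were the corepressor gene IRF2BP1 (log2 fold change -0.59, edgeR adjusted p = 0.0194), the cytosolic DNA sensor gene CGAS (-0.60, 0.0293) and the adaptor gene TRAF3 (-0.60, 0.0495). PTPN6 and UNC93B1 were called in all 19 alternative fits, IRF2BP1 in 15, IFNGR1 and CGAS in 14 and TRAF3 in 7. Leaving out any 1 control ended the calls of IFNGR1, IRF2BP1, CGAS and TRAF3, leaving out AE library 3 those of CGAS and TRAF3, and leaving out AE library 2 or any 1 LYL1 library that of TRAF3. STING1, the adaptor downstream of CGAS, was uneven, at 65.8, 65.3 and 57 CPM in the controls and 153, 53.2 and 236 CPM in the AE libraries (log2 fold change 1.23, edgeR adjusted p = 0.0529).

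Between the knockdowns, 5 pathway genes were higher in the AE libraries (IFNGR1, PTPN6, DDX58, STING1, UNC93B1) and 3 lower (IRF2BP1, IRF2BPL, CGAS), 27.6% of those tested beside 20.4% of all genes. PTPN6 and UNC93B1 were called in all 18 alternative fits, IRF2BPL in 15, STING1 in 13, DDX58 in 9, CGAS in 8, IRF2BP1 in 7 and IFNGR1 in 6. DDX58 encodes the RNA sensor RIG-I, and its log2 difference was 0.78 (edgeR adjusted p = 0.0318). IRF2BPL differed by -1.07 (edgeR adjusted p = 0.021), with LYL1 libraries at 27, 24.4 and 14.2 CPM and AE libraries at 11.8, 6.79 and 12.8 CPM. IRF4, an IRF family gene of lymphoid and dendritic cells that is no member of the list of 53, ranged from 0.452 to 0.485 CPM in the control libraries. It had 0.0715, 0.211 and 0.0481 CPM in the AE libraries and was not called (log2 fold change -1.96, edgeR adjusted p = 0.0688).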

How the data were processed

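RNA-seq of 9 Kasumi-1 libraries was analysed from the authors' deposited raw counts, 1 whole number per gene symbol and library, without normalisation. The submitters' processing notes name featureCounts 2.0.1, HISAT2 2.2.0, fastp 0.20.1, DESeq2 1.26.0, SAMtools 1.7 and hg19 without saying what each did. The annotation, the strand setting and the treatment of multi-mapping reads are not given in the sources used here, nor is any batch or date. The labels do not say that libraries of a group are separate cultures, or whether the AE numbers mark different shRNAs. The sample titles give the LYL1 libraries by number alone. The p-values therefore measure the spread between these samples, which may be technical or may include differences between shRNAs. No 2 libraries held identical values.

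Genes were kept with filterByExpr (10 counts at the median library size, or 0.394 CPM, in at least 3 libraries), scaled with TMM and tested in 1 group-means model of all 9 libraries in edgeR 4.0.16 by its quasi-likelihood F test, robust and with the current rather than the legacy fit (limma 3.58.1, R 4.3.3). Benjamini-Hochberg adjustment ran over all genes tested, and called means an adjusted p below 0.05. The SE is the log2 fold change divided by the square root of F. The fit was tested on simulated counts. Alternatives were other scalings and filters, DESeq2 1.42.0, limma-voom, 6-library fits, leaving out each library and a replicate block. The legacy fit was added after seeing the data.

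The 53 members, the role, pathway and marker lists, the motifs and the tests were chosen with earlier results of these data known. Values in every library are given for members called in any comparison and for the 3 uncalled members with the largest change per knockdown. Pathway genes are named where called. ADAR, IRF1, LGALS9, IRF4, other uncalled genes and single marker genes were named after their values were seen. Exon lengths and shared windows come from GENCODE 29, promoters from RefSeq GRCh38.p14. Totals of 20103275 to 28039518 counts put 3 counts at 0.106 to 0.15 CPM, and intervals and limits cover counting error only.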

Additional observations from a re-analysis of the deposited data

How the results depend on the processing

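No called gene, and none of the 3 uncalled members with the largest change per knockdown, changed sign in any alternative fit. AE knockdown against control called 7 members higher and 3 lower. The number called higher was 4 under median-of-ratios scaling, 3 with limma-voom and 4 in a fit of only the 6 libraries compared, and ranged from 0 to 9 when each library was left out in turn, while the number called lower ranged from 2 to 5. With the replicate number as a block, the fit used only the 6 control and AE libraries. It called 1 member higher (IRF8) and 2 lower (IFI16, IFITM3), with 11.4% of all genes called. Without the block, the same 6 libraries gave 4 higher and 2 lower, with 18% of all genes called, beside 21.8% in the main fit. Same-numbered control and AE libraries deviated from their group means with correlations of 0.07, -0.03 and 0.02. Differently numbered ones had correlations from -0.08 to 0.04. Values this weak do not decide whether the numbers pair the samples. For the LYL1 comparisons alone no block could be fitted, because the LYL1 libraries share no number with the others. IRF7 was called in 15 of 19 alternative fits, IFITM1 in 14, EIF2AK2 and SAMD9 in 10, IFITM2 and IFI35 in 7 and SAMD9L in 4, while IFIT1, not called in the report, was called in 6. IRF8 was called in 17 of 18 and was not tested under the strict filter. LYL1 knockdown called 0 members in every alternative run. AE against LYL1 knockdown called 4 higher and 2 lower. The number called higher was 2 without a low-count filter, 2 with limma-voom and a spread per group and 2 in the 6-library fit, and 4 were called lower by DESeq2. Leaving out each library gave 2 to 9 higher and 2 to 4 lower. The cause of these changes was not tested, except that fits leaving out a library or using 6 have fewer samples. Depth limits the 15 untested members, none above 20 counts in a library.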
